A study of Mus musculus with 9 samples.

Results

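The genes described here are the members of the HoxA, HoxB, HoxC and HoxD clusters, taken as every row of the deposited gene table whose symbol was Hox followed by a, b, c or d and a number. This rule found 39 of the 26858 genes in the table and used no measured value. RNA was sequenced from nephron progenitor cells of embryonic mouse kidneys at age E18.5 (embryonic day), with 4 *Six2-Qpc*+/- control libraries and 5 *Six2-Qpc*-/- mutant libraries. The gene called *Qpc*, with the symbol *Uqcrq*, encodes a subunit of mitochondrial complex III. Both groups carried a bacterial artificial chromosome transgene in which the *Six2* promoter drives Cre recombinase fused to eGFP, and cells were sorted by that eGFP. Floxed *Qpc* was deleted on 1 allele in the control cells and on both alleles in the mutant cells, so the controls were heterozygous and not wild type. The sort followed the transgene and not the endogenous SIX2 protein. The paper isolated the cells from mice and gives n = 4 and 5. No source used here says outright that each library came from a separate animal or litter. The p-values therefore measure the spread between these libraries, which may be partly technical.

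Hox genes encode homeodomain transcription factors that give cells their position along the head-to-tail axis of the embryo. Genes that hold the same place in different clusters form a paralog group, low numbers lie at the 3′ end of a cluster and are used early and anteriorly, and high numbers lie at the 5′ end and are used late and posteriorly. In the metanephric mesenchyme, from which the SIX2 progenitors descend, *Hoxa11*, *Hoxc11* and *Hoxd11* act together with *Eya1* and *Pax2* to switch on *Six2* and *Gdnf*, and mice that lack all of them do not form kidneys.

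Promoter sequence was taken from RefSeq windows on build GRCm38.p6 and cut to the 250 bases before each annotated start. Windows were given for 22 of the 39 members, 24 windows in all. *Hoxd12* and *Hoxb8* are shown because they passed the test for a change in mutant cells, and *Hoxa11* and *Hoxd11* because they are the kidney Hox11 genes measured with most reads. Capitals mark any match, on either strand, to TGATNNAT (Pbx with Hox), TTTATNG (posterior Hox), TGACAG (Meis and Pknox), AGGTCA (retinoic acid receptor), TATAAA (core promoter element), GGGCGG (Sp1) or TGATGNAA (ATF4). Each sequence reads 5′ to 3′ on the strand of its gene. The windows are chr2:74674763-74675012 on the plus strand for *Hoxd12*, chr11:96281655-96281904 on the plus strand for *Hoxb8*, chr6:52245811-52246060 on the minus strand for *Hoxa11*, and chr2:74682073-74682322 on the plus strand for the downstream of the pair of *Hoxd11* starts.
Hoxd12: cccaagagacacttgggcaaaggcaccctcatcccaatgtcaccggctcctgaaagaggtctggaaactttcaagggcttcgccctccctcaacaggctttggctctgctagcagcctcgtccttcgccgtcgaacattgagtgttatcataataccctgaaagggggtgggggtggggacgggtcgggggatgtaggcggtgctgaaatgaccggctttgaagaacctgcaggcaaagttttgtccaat
Hoxb8: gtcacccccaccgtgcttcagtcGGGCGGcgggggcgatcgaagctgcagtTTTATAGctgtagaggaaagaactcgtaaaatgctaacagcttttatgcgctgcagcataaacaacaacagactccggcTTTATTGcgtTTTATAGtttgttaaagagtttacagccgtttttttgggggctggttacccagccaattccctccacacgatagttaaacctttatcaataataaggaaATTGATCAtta
Hoxa11: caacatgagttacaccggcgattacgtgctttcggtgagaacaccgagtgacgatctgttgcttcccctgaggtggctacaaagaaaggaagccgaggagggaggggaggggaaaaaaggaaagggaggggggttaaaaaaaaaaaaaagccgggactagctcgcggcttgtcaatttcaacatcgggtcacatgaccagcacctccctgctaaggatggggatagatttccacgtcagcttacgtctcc
Hoxd11: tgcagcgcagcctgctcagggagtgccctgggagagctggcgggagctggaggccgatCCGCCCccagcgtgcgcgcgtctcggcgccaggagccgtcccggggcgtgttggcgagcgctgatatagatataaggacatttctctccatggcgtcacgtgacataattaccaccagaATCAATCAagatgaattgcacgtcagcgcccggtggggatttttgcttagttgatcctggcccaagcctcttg

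The *Hoxd12* and *Hoxa11* windows held none of these letters. The *Hoxb8* window held TTTATNG at 3 places and TGATNNAT at 1 place, and at 2 of the 3 TTTATNG places the letters also spelled TATAAA on the other strand. Across the 24 member windows, TGATNNAT was present in 16.7% (*Hoxa2*, *Hoxb1*, *Hoxb8* and *Hoxd11*), against 7.69% of all 32817 windows in the table. TTTATNG was present in 8.33% of the member windows (*Hoxb8* and *Hoxd4*) and 9.81% of all windows, and AGGTCA in 25% and 14%. TGACAG was present in 8.33% and 15.9%, TATAAA in 16.7% and 12.4%, GGGCGG in 41.7% and 32.7%, and TGATGNAA in 0% and 3.45%. The median GC content of the member windows was 58.6% against 52.4%, and the median number of CpG dinucleotides was 12.5 against 6. With 24 windows these shares are descriptions of the letters, and they were not tested.

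The library totals ranged from 21040536 to 23986458 counts. *Uqcrq* had between 76.8 and 107 counts per 1000000 after normalization of the library size (CPM) in control cells and between 16.5 and 28.2 CPM in mutant cells. The nephron progenitor marker *Six2* was abundant in every library, at 506 to 623 CPM in controls and 529 to 795 CPM in mutants. Sex is not labelled. The log2 of summed CPM of Y-linked *Ddx3y*, *Eif2s3y*, *Kdm5d* and *Uty* was 8.0 and 8.4 in control replicates 72 and 73. It was 8.3 in mutant replicate 79 and at most −2.5 in every other library. Each genotype thus held libraries of both sexes, in unequal shares. A fit with these transcripts as a covariate is among the alternatives below. On the first principal component of all tested genes, which held 38.9% of the variance, mutant replicate 74 (8.38) and control replicate 76 (−21.4) lay nearest to the other genotype, and the other mutant libraries lay between 28.3 and 50.6.

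Hox transcripts took a small part of each library. They received between 0.135% and 0.152% of the counts in control cells (mean 0.141% ± 0.00763, SD, n = 4) and between 0.121% and 0.134% in mutant cells (mean 0.128% ± 0.00662, SD, n = 5). The groups did not overlap in this share, since the highest mutant value, 0.1345% in replicate 78, lay just under the lowest control value, 0.1350% in replicate 73. With the 100 genes with most reads left out of the totals, the share was 0.163% to 0.181% in control and 0.147% to 0.167% in mutant cells, and the groups overlapped. On normalized library sizes the members summed to 1363 ± 53.9 CPM in control cells (SD, n = 4) and 1318 ± 116 CPM in mutant cells (SD, n = 5). No p-value was computed for these sums over members.

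The progenitors transcribed the middle and posterior part of the clusters. Levels are compared between genes as counts per kilobase of gene length and 1000000 counts of the normalized library size (RPKM). Paralog groups 9 to 11 held 63.8% ± 1.23 of the summed Hox RPKM in control cells (SD, n = 4) and 65.2% ± 1.64 in mutant cells (SD, n = 5). Groups 5 to 8 held 27.1% and 27.6%, and the 12 genes of groups 1 to 4 together held 4.70% in each genotype. Group 10 was the most abundant, with 207 ± 20.2 RPKM in control and 214 ± 32.4 RPKM in mutant cells, followed by group 9 with 117 ± 10.7 and 115 ± 7.82 RPKM. By cluster, HoxA summed to 200 ± 9.35 RPKM in control cells, HoxC to 169 ± 5.34, HoxD to 115 ± 12.6 and HoxB to 104 ± 7.40. In mutant cells these sums were 203 ± 28.9, 156 ± 21.5, 99.3 ± 11.7 and 107 ± 8.57 RPKM in the same order. The libraries of the genotypes overlapped in each of these shares and sums.

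The gene with the highest level per length in its cluster was *Hoxa10* in HoxA, at 111 ± 10.03 RPKM in control cells (SD, n = 4) and 114 ± 23.6 in mutant cells (SD, n = 5). It was *Hoxc10* in HoxC, at 65.4 ± 7.70 and 62.9 ± 12.1 RPKM. In HoxB it was *Hoxb7* in control cells, at 31.4 ± 3.30 RPKM against 24.8 ± 2.69 for *Hoxb6*, and *Hoxb6* in mutant cells, at 35.9 ± 8.18 RPKM against 22.7 ± 4.71 for *Hoxb7*. In HoxD it was *Hoxd10*, at 30.8 ± 3.99 RPKM in control cells, where *Hoxd11* lay within the spread at 29.5 ± 5.73 and *Hoxd12* at 26.1 ± 5.73, and at 36.6 ± 2.65 RPKM in mutant cells, where *Hoxd11* had 24.5 ± 5.23 and *Hoxd12* 13.5 ± 2.95. The boundary at the posterior end was sharp. *Hoxd12* carried between 23.5 and 80.5 CPM in every library, while *Hoxd13*, its neighbour at the 5′ end, carried 0 to 0.867 CPM, and *Hoxa13*, *Hoxb13*, *Hoxc12* and *Hoxc13* carried at most 3 reads in any library.

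**Figure D1:**
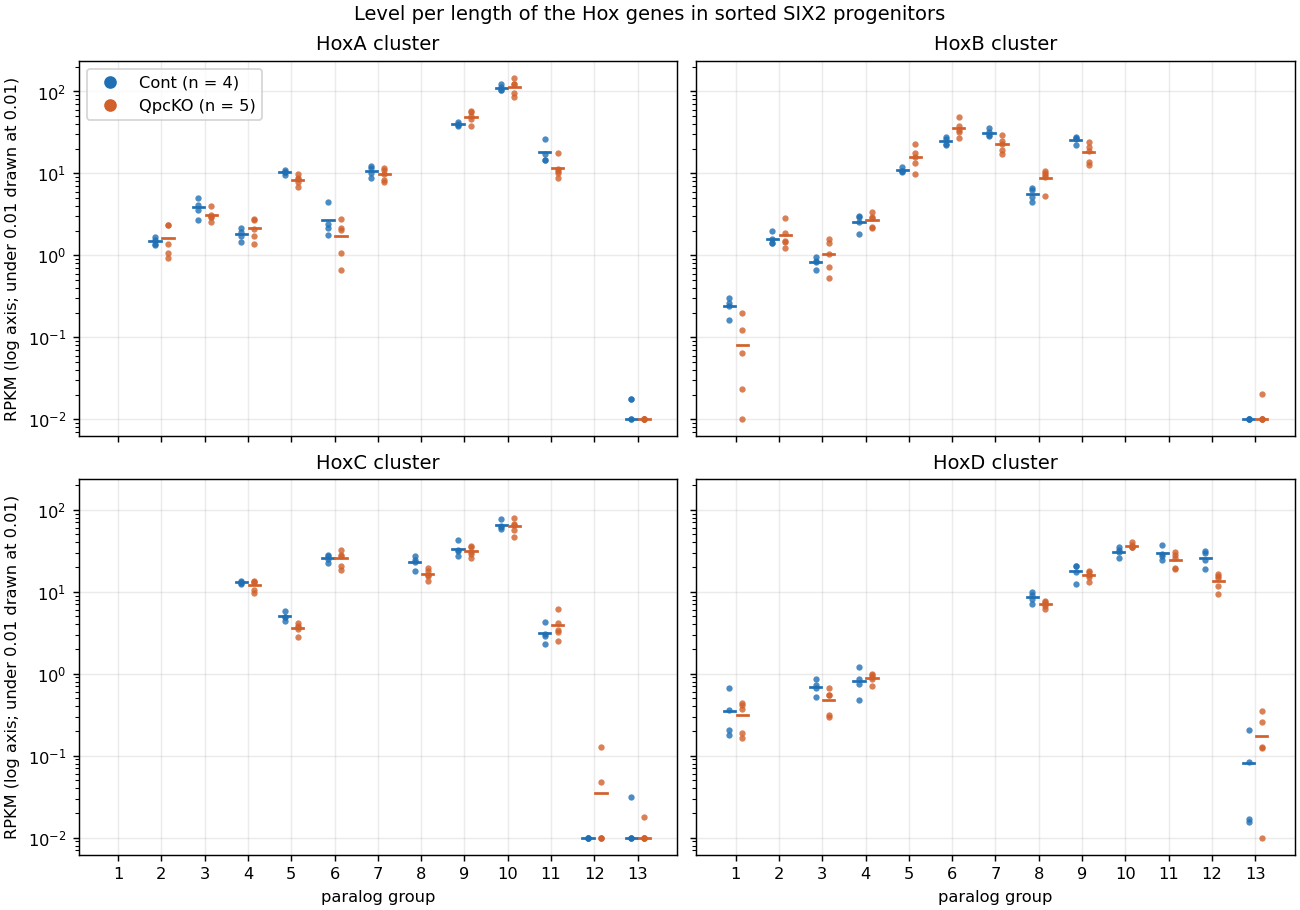
Level per length (RPKM, log axis) of Hox genes by paralog group, with 1 panel per cluster. Points are libraries (blue, 4 Cont; orange, 5 QpcKO) and horizontal lines are group means. Group 10 genes stand highest in HoxA (111 RPKM in controls) and HoxC (65.4 RPKM), groups 1 to 3 stay under 6 RPKM, and Hoxd12 is the only member of groups 12 and 13 above 1 RPKM.

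Of the 39 members, 33 passed the filter on low counts and were tested for a difference between genotypes with the quasi-likelihood test of edgeR, with p-values adjusted over all 14990 tested genes (Benjamini-Hochberg). Changes are log2 fold changes of mutant over control, with their standard errors (SE). An adjusted p under 0.05 was found for 4 of the 33, or 12.1%, against 14.8% of all tested genes, so the number of changed members was near the background. *Hoxb6* and *Hoxb8* rose (2 of 33, 6.06%, against 7.82% of all genes), and *Hoxd12* and *Hoxc8* fell (2 of 33, 6.06%, against 7.02%). The libraries of the genotypes did not overlap for *Hoxd12* and *Hoxc5* (6.06% of the members, against 15.2% of all tested genes). The fitted change was above 0 for 14 members and below 0 for 19, with a median of −0.10 against −0.01 over all tested genes. It was lowest for *Hoxd12* (−0.95). By cluster, the median change was −0.05 in HoxA, 0.26 in HoxB, −0.10 in HoxC and −0.22 in HoxD. In bulk libraries, fewer cells of a type and less RNA per cell cannot be told apart, and stroma markers summed to 243 to 390 CPM in control and 556 to 1438 CPM in mutant libraries. Their part in the Hox changes was not tested.

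**Figure D2:**
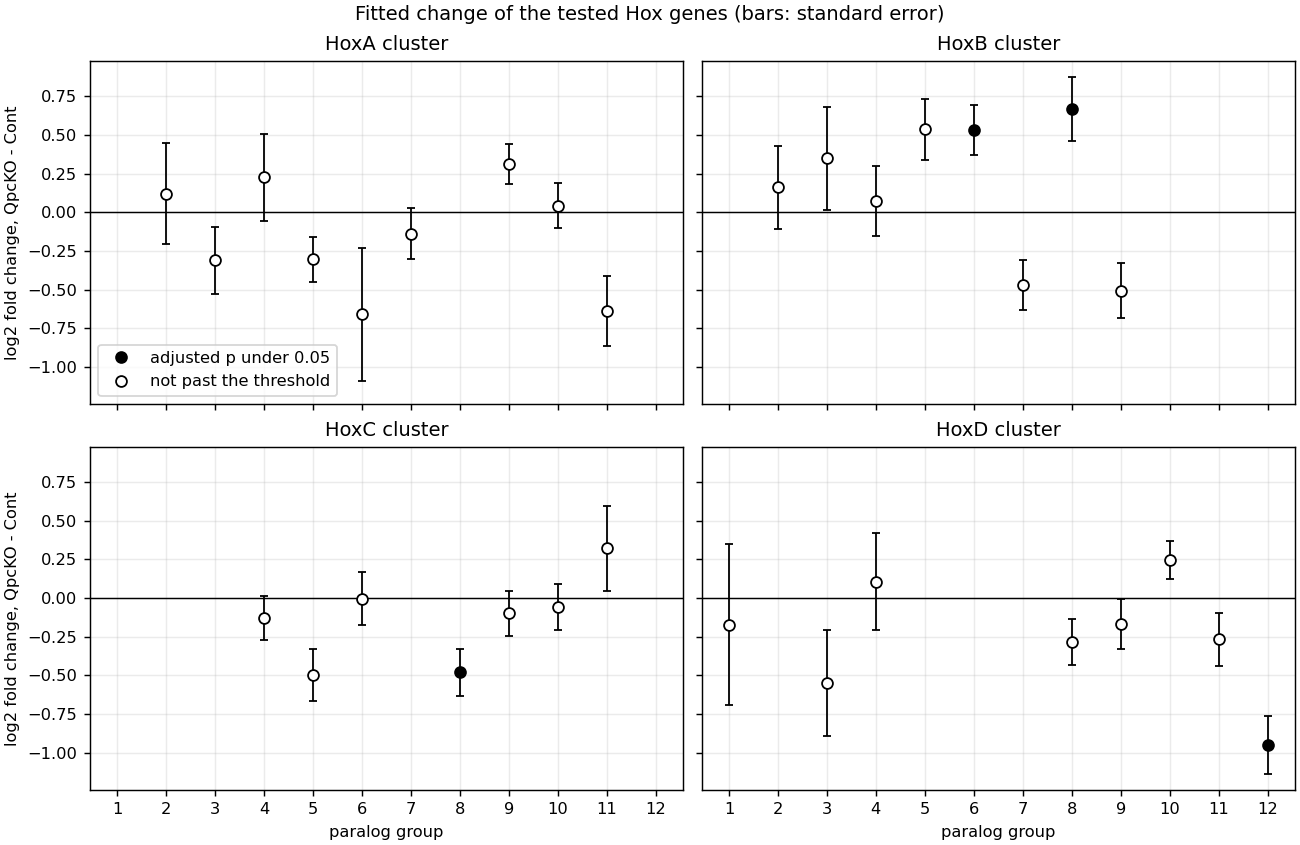
Fitted log2 fold change (QpcKO over Cont) of tested Hox genes by paralog group, with 1 panel per cluster. Points are edgeR estimates, bars are standard errors, and filled points passed an adjusted p of 0.05: Hoxb6 (0.53) and Hoxb8 (0.67) above 0, Hoxc8 (−0.48) and Hoxd12 (−0.95) below 0.

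*Hoxd12*, the most posterior Hox gene these cells transcribed in quantity, fell to 0.517 of its control level in the ratio of mean CPM. It lies on chromosome 2, 74675013 to 74677705 (GRCm38, plus strand, ENSMUSG00000001823), and shares no exon bases with another annotated gene. In control replicates 71, 72, 73 and 76 it had 48.2, 80.5, 61.1 and 75.1 CPM. In mutant replicates 74, 75, 77, 78 and 79 it had 37.0, 23.5, 29.8, 41.5 and 39.5 CPM. Every mutant library, replicate 74 included, lay below every control library. The log2 fold change was −0.95 (SE 0.19, adjusted p = 0.00642, edgeR), and a 2-sided exact permutation test of this gene alone gave p = 0.00794, the smallest that 4 libraries against 5 allow. That permutation p follows from the lack of overlap and adds nothing to it. *Hoxc5* had the same value, 15.2% of all tested genes had no overlap, and the p was not adjusted for the choice of gene. The call held with each of the 9 libraries left out, between −1.08 and −0.84. With a stroma score (the mean centred log2 CPM of the 13 tested stroma markers) as a covariate, a fit in which only 6 of all genes passed the test and the score did not overlap between genotypes, the change was −0.60 (adjusted p = 0.793, edgeR).

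The neighbours of *Hoxd12* in the same cluster did not pass the test. *Hoxd11*, a kidney Hox11 gene, had 91.6, 126, 98.1 and 81.1 CPM in control and 104, 63.6, 65.5, 93.3 and 86.3 CPM in mutant replicates, which overlapped (log2 fold change −0.27, SE 0.17, adjusted p = 0.307, edgeR). *Hoxd10* had 63.2, 55.3, 46.3 and 59.2 CPM in control and 68.4, 63.1, 63.0, 74.1 and 63.6 CPM in mutant replicates, and 1 control library, replicate 71, lay within the mutant range (0.25, SE 0.12, adjusted p = 0.178, edgeR). Within a library, the log2 ratio of *Hoxd12* to *Hoxd11* counts lay between −0.93 and −0.11 in controls and between −1.49 and −1.13 in mutants, and that of *Hoxd12* to *Hoxd10* between −0.39 and 0.54 and between −1.43 and −0.69. These ratios do not depend on the scaling of libraries, and the genotypes did not overlap in either. They were chosen after the values were seen and were not tested. Part of the *Hoxd11* and *Hoxd10* reads may belong to *Gm28309*, a transcript annotated on the same strand that shares 455 and 104 exon bases with them.

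The remaining Hox11 genes were *Hoxa11* and *Hoxc11*. *Hoxa11* (chromosome 6, 52242106 to 52245810, minus strand) had 33.6, 60.6, 39.7 and 33.4 CPM in control and 40.7, 26.2, 20.0, 24.2 and 23.2 CPM in mutant replicates. All mutant libraries but replicate 74 lay below the controls, and the change did not pass the threshold (log2 fold change −0.64, SE 0.22, adjusted p = 0.0701, edgeR). Without mutant replicate 74 it did (−0.84, adjusted p = 0.00947, edgeR), in a fit where more of all genes passed too, as given with the alternatives. *Hoxc11* was low, with 6.13, 5.88, 4.59 and 8.52 CPM in control and 6.43, 5.09, 8.42, 12.5 and 6.85 CPM in mutant replicates, which overlapped (0.32, SE 0.28, adjusted p = 0.461, edgeR). The Hox11 group summed to 50.9 ± 10.9 RPKM in control cells (SD, n = 4) and 40.1 ± 8.22 RPKM in mutant cells (SD, n = 5).

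*Hoxa11os*, the noncoding antisense partner of *Hoxa11*, did pass the test. It had 83.4, 65.2, 67.6 and 68.8 CPM in control and 56.9, 46.3, 47.3, 54.2 and 44.7 CPM in mutant replicates, with no overlap, and fell by 0.51 on the log2 scale (SE 0.12, adjusted p = 0.0156, edgeR). *Hoxa11* and *Hoxa11os* share 800 exon bases on opposite strands, and the libraries kept no strand, so reads from the shared stretch cannot be told apart.

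The most abundant members did not pass the test. *Hoxa10* had 293, 264, 264 and 318 CPM in control and 222, 313, 373, 315 and 244 CPM in mutant replicates (log2 fold change 0.04, SE 0.15, adjusted p = 0.871, edgeR). *Hoxc10* had 122, 119, 112 and 146 CPM in control and 88.9, 108, 130, 151 and 123 CPM in mutant replicates (−0.06, SE 0.15, adjusted p = 0.83, edgeR). For both genes the mutant libraries spread on either side of the controls, with replicate 74 lowest. *Hoxa9* had 130, 125, 123 and 137 CPM in control and 122, 163, 179, 185 and 149 CPM in mutant replicates, and all mutant libraries but replicate 74 lay above the controls (0.31, SE 0.13, adjusted p = 0.114, edgeR). Without replicate 74 the change of *Hoxa9* was 0.39 (adjusted p = 0.0231, edgeR), in the fit where more of all genes passed. *Hoxc9* had 102, 77.1, 74.3 and 65.7 CPM in control and 61.3, 73.1, 85.4, 84.5 and 68.5 CPM in mutant replicates, which overlapped (−0.10, SE 0.15, adjusted p = 0.688, edgeR).

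**Figure D3:**
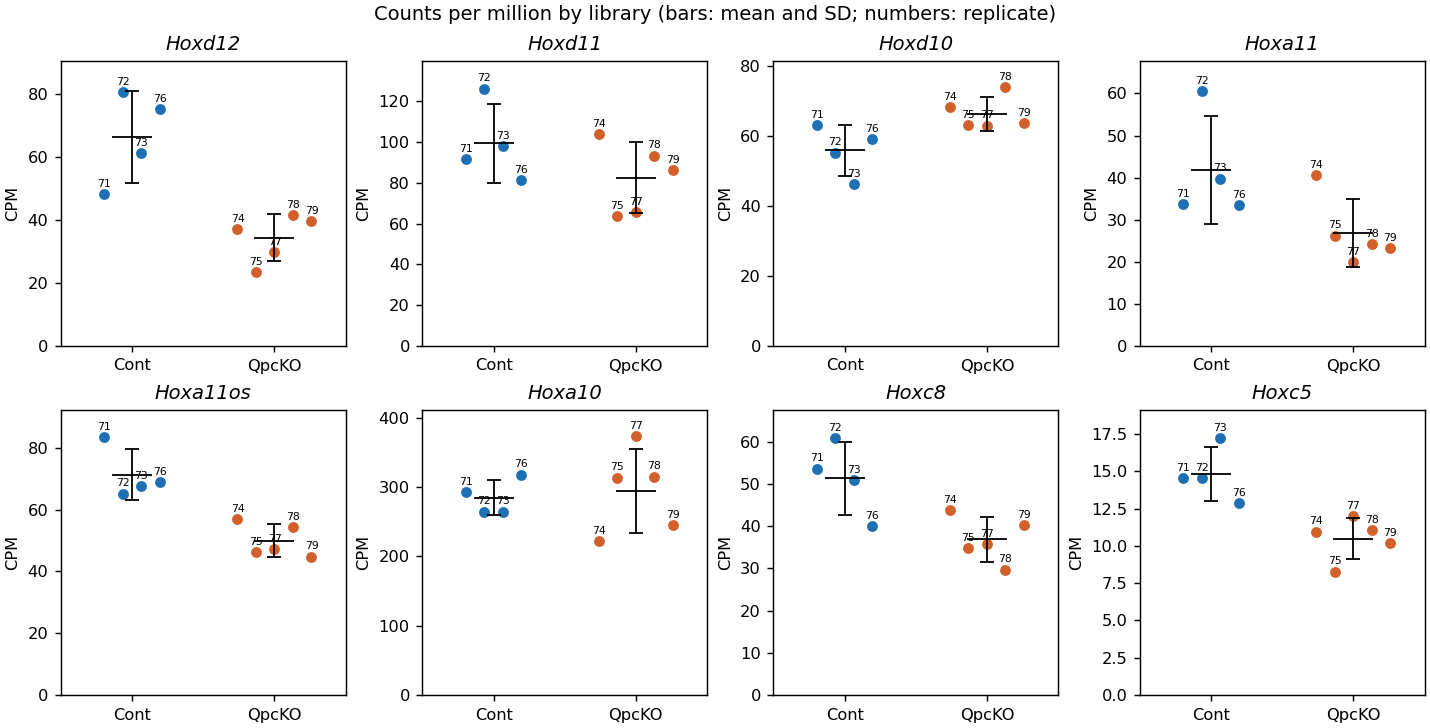
CPM of 7 Hox genes and Hoxa11os in each library, on linear axes from 0. Points are libraries with their replicate number, and bars are the mean and SD of 4 Cont and 5 QpcKO libraries. Hoxd12, Hoxa11os and Hoxc5 show no overlap between genotypes, while Hoxd11, Hoxd10, Hoxa11, Hoxa10 and Hoxc8 do overlap.

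HoxB genes that lie side by side differed in the direction of their values. *Hoxb6* (chromosome 11, 96292476 to 96301569, plus strand, ENSMUSG00000000690) had 54.6, 43.2, 45.4 and 51.5 CPM in control and 52.7, 66.5, 95.7, 73.98 and 63.2 CPM in mutant replicates. Only mutant replicate 74 lay within the control range, and *Hoxb6* rose by 0.53 on the log2 scale (SE 0.16, adjusted p = 0.0421, edgeR). *Hoxb8* (chromosome 11, 96281905 to 96285315, plus strand, ENSMUSG00000056648), whose promoter window is shown above, had 13.5, 11.7, 17.4 and 16.5 CPM in control and 13.8, 24.9, 26.7, 28.1 and 23.7 CPM in mutant replicates. Again only replicate 74 lay within the control range, and *Hoxb8* rose by 0.67 (SE 0.21, adjusted p = 0.0467, edgeR).

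Both calls were close to the threshold and ended with upper-quartile scaling (0 members higher) and when any library other than mutant replicate 74 was left out, with adjusted p-values up to 0.12 for *Hoxb6* and 0.129 for *Hoxb8*. Without replicate 74 the changes were 0.62 (adjusted p = 0.0114) and 0.81 (adjusted p = 0.00512), and more of all genes passed as well. *Hoxb5*, the next gene towards the 3′ end, had 33.7, 29.5, 29.4 and 30.0 CPM in control and 27.7, 44.4, 63.7, 49.4 and 37.3 CPM in mutant replicates, and did not pass the threshold (0.54, SE 0.20, adjusted p = 0.0807, edgeR). It shares 100 exon bases with the antisense gene *Hoxb5os*.

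*Hoxb7*, which lies between *Hoxb8* and *Hoxb6*, had 46.3, 41.2, 37.9 and 36.8 CPM in control and 37.9, 31.8, 24.6, 22.5 and 29.6 CPM in mutant replicates. *Hoxb9*, on the other side of *Hoxb8*, had 71.9, 68.2, 69.0 and 56.5 CPM in control and 62.8, 54.0, 33.0, 35.5 and 48.3 CPM in mutant replicates. For both genes only mutant replicate 74 lay within the control range. The changes of *Hoxb7* (−0.47, SE 0.16, adjusted p = 0.0646, edgeR) and *Hoxb9* (−0.51, SE 0.18, adjusted p = 0.0723, edgeR) did not pass the threshold, and without replicate 74 they did (−0.58, adjusted p = 0.0164, and −0.64, adjusted p = 0.016). Leaving out replicate 74 raised the number of calls over all genes too, as given with the alternatives, so these calls are not particular to the Hox genes.

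Within a library, the log2 ratio of *Hoxb6* to *Hoxb7* counts was 0.24, 0.07, 0.26 and 0.49 in the controls and 0.47, 1.07, 1.96, 1.72 and 1.09 in the mutants. Mutant replicate 74 stood at the top of the control values and the other 4 mutants stood above them. The log2 ratio of *Hoxb8* to *Hoxb9* was −2.42, −2.54, −1.99 and −1.78 in the controls and −2.18, −1.12, −0.31, −0.34 and −1.03 in the mutants, with the same library among the controls. These ratios were formed after the values were seen and were not tested. Towards the 3′ end, *Hoxb4* (0.07), *Hoxb3* (0.35) and *Hoxb2* (0.16) did not pass the test, and each had a mean of at most 6.97 CPM in either genotype.

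**Figure D4:**
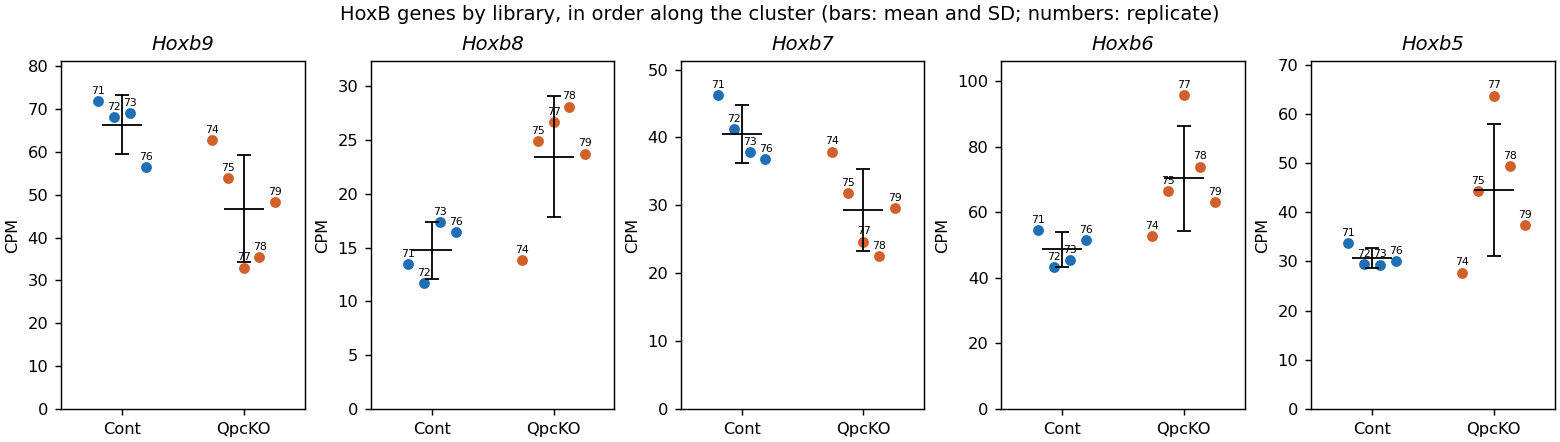
CPM of Hoxb9, Hoxb8, Hoxb7, Hoxb6 and Hoxb5 in each library, ordered from the 5′ to the 3′ end of the cluster, on linear axes from 0. Points are libraries with their replicate number, and bars are the mean and SD of 4 Cont and 5 QpcKO libraries. The mean is higher in QpcKO for Hoxb8, Hoxb6 and Hoxb5 and lower for Hoxb9 and Hoxb7, and replicate 74 sits with the controls or next to them in each panel.

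In the HoxC cluster, *Hoxc8* (chromosome 15, 102990607 to 102994111, plus strand, ENSMUSG00000001657) had 53.7, 61.0, 50.9 and 40.1 CPM in control and 43.9, 34.8, 35.7, 29.7 and 40.3 CPM in mutant replicates. Control replicate 76 lay within the mutant range, and *Hoxc8* fell by 0.48 on the log2 scale (SE 0.15, adjusted p = 0.0482, edgeR). The call held without mutant replicate 74 or control replicate 76 and ended without any 1 of the other 7 libraries, with adjusted p-values between 0.0612 and 0.149. *Hoxc5* had 14.6, 14.6, 17.2 and 12.9 CPM in control and 10.9, 8.28, 11.99, 11.1 and 10.2 CPM in mutant replicates, with no overlap, and missed the threshold when adjusted over all genes (−0.50, SE 0.17, adjusted p = 0.0634, edgeR). It shares 166 exon bases with *Hoxc10* on the same strand. *Hoxc6* (0.00) and *Hoxc4* (−0.13) had adjusted p-values of 0.994 and 0.571.

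Paralogs of the genes that passed the test had fitted changes of either sign. In group 8, *Hoxb8* rose and *Hoxc8* fell, and *Hoxd8* had 22.5 ± 3.34 CPM in control and 18.46 ± 1.71 CPM in mutant cells (−0.28, adjusted p = 0.21, edgeR). In group 6, *Hoxb6* rose, and *Hoxa6* (−0.66, SE 0.43, adjusted p = 0.32, edgeR) and *Hoxc6* did not pass the test. In group 12 the sum was 26.1 ± 5.73 RPKM in control and 13.6 ± 2.92 RPKM in mutant cells, and it was nearly all *Hoxd12*, since *Hoxc12* had 0 reads in every control library. Among the other middle genes, *Hoxa5* (10.4 ± 0.600 RPKM in control and 8.40 ± 1.09 RPKM in mutant cells; −0.30, adjusted p = 0.177, edgeR), *Hoxa7* (−0.14) and *Hoxd9* (−0.17) did not pass the test. Whether the changes of paralogs differ from each other was not tested.

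The anterior genes were counted at low levels. Some share exon bases with other genes, such as *Hoxd3* (2225 bases) and *Hoxd4* (1154) with *Gm28230* on the same strand. *Hoxb3* shares 2250 and *Hoxb2* 953 exon bases with *Hoxb3os* on the opposite strand, and the libraries kept no strand. How reads from these stretches were counted is not known, so the levels and changes of these genes are uncertain. None of the 11 tested genes of groups 1 to 4 passed the edgeR or the DESeq2 test, against 14.8% of all tested genes called by edgeR. An unadjusted p under 0.05 was found for 0 of the 11, against 31.4% of all tested genes. Their changes had a median of 0.11, and included *Hoxd3* (−0.55, SE 0.34), *Hoxa2* (0.12), *Hoxa3* (−0.31), *Hoxa4* (0.23), *Hoxd1* (−0.17) and *Hoxd4* (0.11). *Hoxc4* stood apart from this group in level, at 13.03 ± 0.440 RPKM in control and 11.9 ± 1.72 RPKM in mutant cells, while the others lay between 0.243 (*Hoxb1*) and 3.87 RPKM (*Hoxa3*) in control cells. The 6 members that did not pass the filter were *Hoxa13*, *Hoxb1*, *Hoxb13*, *Hoxc12*, *Hoxc13* and *Hoxd13*. *Hoxb1* had 13, 13, 15 and 8 reads in control and 6, 3, 8, 1 and 0 reads in mutant replicates, and *Hoxd13* had 12, 1, 5 and 1 reads in control and 15, 7, 17, 0 and 7 reads in mutant replicates. The other 4 had at most 3 reads in a library, which is the level treated as not detected at this depth.

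Transcripts that lie in or beside the clusters were set beside the Hox genes. Of 9 tested noncoding RNAs of the clusters, *Hoxa11os* fell and none rose, against 14.8% of all tested genes changed in either direction. Their median change was −0.32. *Hotair*, a noncoding RNA of the HoxC cluster, had 2.87 ± 1.01 CPM in control and 1.76 ± 0.568 CPM in mutant cells (−0.69, SE 0.35, adjusted p = 0.19, edgeR), and *Hoxb5os* 48.0 and 39.3 CPM (−0.29, adjusted p = 0.147, edgeR). A list of the 21 rows inside the clusters that are no members was formed after the values were seen. It holds 9 of the same noncoding RNAs. Of its 16 tested rows 2 fell, *Hoxa11os* and *Gm53*, and none rose, beside the same 14.8% of all tested genes. The values of *Gm53*, in the HoxB cluster, went from 29.5, 27.3, 24.6 and 23.6 CPM to 18.7, 15.4, 14.5, 19.3 and 16.6 CPM, with no overlap (−0.64, SE 0.14, adjusted p = 0.0125, edgeR). Of 20 tested genes that flank the clusters, *Lnp* near HoxD (0.53, SE 0.16, adjusted p = 0.0465, edgeR) and *Snx10* near HoxA (0.44, SE 0.14, adjusted p = 0.0479, edgeR) rose and none fell, with a median of 0.09. The share over all tested genes is again 14.8%. The calls of *Lnp* and *Snx10* held in 2 and 1 of the 9 fits that leave out a library, and those of *Hoxa11os* and *Gm53* in all 9.

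The cofactors with which Hox proteins bind DNA are homeodomain proteins of the TALE class, and their transcripts changed in opposite directions. Of 9 tested genes, 2 rose and 2 fell, or 4 of 9 against 14.8% of all genes. *Meis1* had 29.4, 36.1, 22.7 and 27.6 CPM in control and 71.2, 104, 45.2, 38.9 and 52.9 CPM in mutant replicates, with no overlap (log2 fold change 1.11, SE 0.26, adjusted p = 0.0136, edgeR). *Pknox2* had 8.78, 14.4, 9.36 and 7.17 CPM in control and 4.18, 5.49, 4.03, 4.33 and 4.13 CPM in mutant replicates, also with no overlap (−1.16, SE 0.23, adjusted p = 0.00666, edgeR). The call of *Pknox2* held without each of the 9 libraries and that of *Meis1* in 8 of the 9 such fits. With the stroma score, which includes *Meis1* itself, as a covariate, the change of *Meis1* turned to −0.48 (adjusted p = 0.807, edgeR) and that of *Pknox2* was −1.34 (adjusted p = 0.619, edgeR).

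*Meis2*, the most abundant of these genes by counts, had 277, 279, 221 and 270 CPM in control and 310, 354, 326, 327 and 358 CPM in mutant replicates (0.36, SE 0.11, adjusted p = 0.0419, edgeR). *Meis3* had 42.9, 44.2, 36.4 and 48.9 CPM in control and 40.4, 23.6, 22.8, 30.6 and 25.2 CPM in mutant replicates, where only replicate 74 overlapped the controls (−0.60, SE 0.18, adjusted p = 0.0381, edgeR). The calls of *Meis2* and *Meis3* each held in 1 of the 9 fits that leave out a library. *Pbx2* (−0.12), *Pbx3* (−0.16), *Pbx4* (−0.49) and *Pknox1* (0.35) did not pass the test. *Meis1* is also a marker of kidney stroma, whose values are given with the cell type markers.

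**Figure D5:**
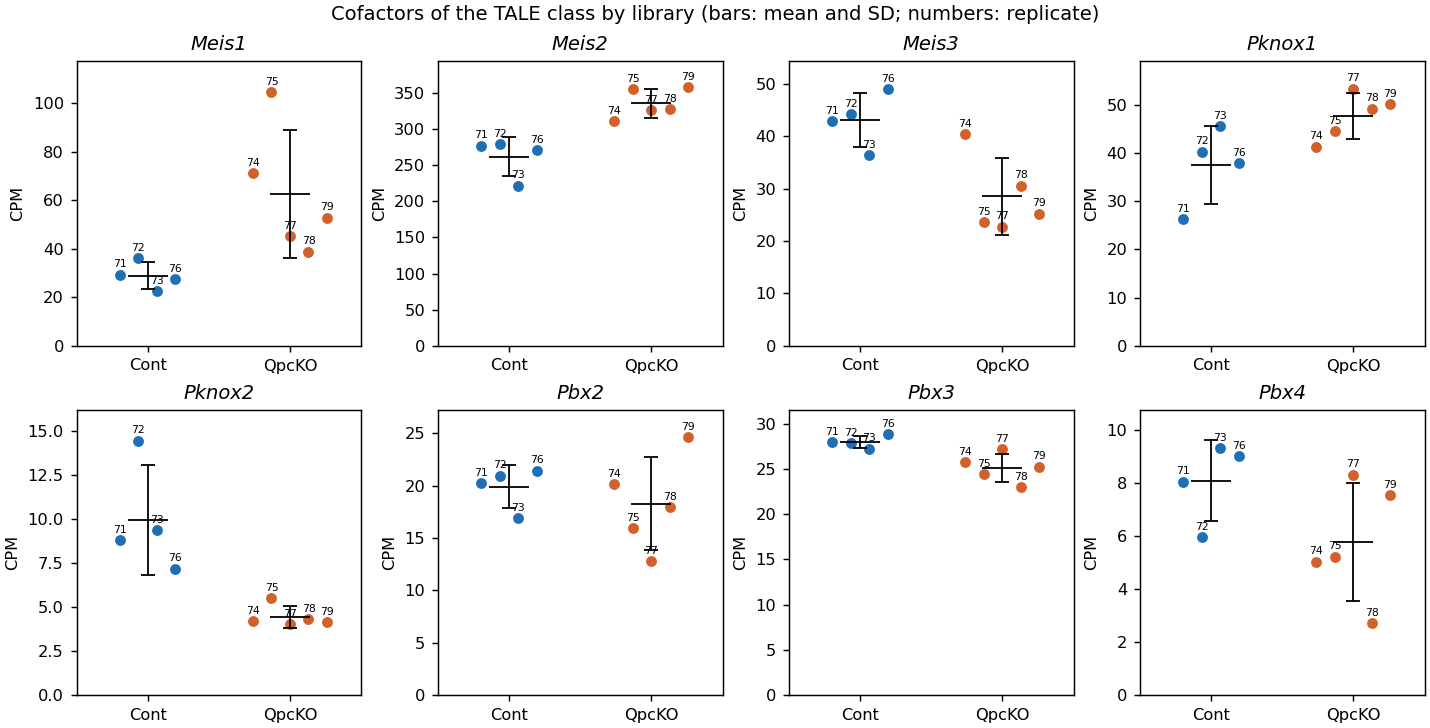
CPM of 8 TALE-class cofactor genes in each library, on linear axes from 0. Points are libraries with their replicate number, and bars are the mean and SD of 4 Cont and 5 QpcKO libraries. Meis1 and Meis2 lie higher in every QpcKO library, Pknox2 lies lower in every QpcKO library, and Meis3 overlaps through replicate 74 alone.

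Genes that act with or under Hox11 in the metanephric mesenchyme did not pass the edgeR test, 0 of 6 tested, against 14.8% of all tested genes. An unadjusted p under 0.05 was found for 3 of them, against 31.4% of all tested genes. DESeq2 called 1, *Six4*, and limma-voom called 3. With 6 genes these counts do not show that the list was unchanged. *Six2* had 506, 623, 548 and 606 CPM in control and 718, 529, 734, 745 and 795 CPM in mutant replicates (0.30, SE 0.13, adjusted p = 0.131, edgeR). *Gdnf*, the growth factor that draws out the ureteric bud, had 17.9 and 13.6 CPM on average (−0.39, adjusted p = 0.352, edgeR). *Pax2* (−0.55, adjusted p = 0.0881), *Six4* (0.63, adjusted p = 0.0802), *Eya1* (0.10) and *Itga8* (0.00) had overlapping libraries.

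Chromatin regulators keep Hox genes silent (Polycomb group) or active (Trithorax group). Of 21 Polycomb genes, 3 rose and none fell, against 7.82% of all genes higher and 14.8% changed in either direction. DESeq2 called 5 of the 21 and limma-voom 7, and limma-voom also called more of all genes than edgeR did, as given with the alternatives. An unadjusted p under 0.05 was found for 8 of the 21, against 31.4% of all genes. Those past the edgeR test were *Ezh1* (0.50, SE 0.13, adjusted p = 0.0214, edgeR), *Phf19* (0.66, SE 0.16, adjusted p = 0.0178) and *Rnf2* (0.67, SE 0.19, adjusted p = 0.0336). *Ezh1* encodes a histone H3K27 methyltransferase, *Phf19* an accessory subunit of that complex and *Rnf2* a ubiquitin ligase for histone H2A. The calls held in 5, 7 and 3 of the 9 fits that leave out a library. *Ezh2*, the methyltransferase prevalent in dividing cells, had 117, 99.4, 103 and 103 CPM in control and 98.7, 107, 101, 110 and 126 CPM in mutant replicates (0.04, adjusted p = 0.843, edgeR). None of the 11 Trithorax-group and H3K27 demethylase genes passed the edgeR or the DESeq2 test, 1 had an unadjusted p under 0.05, and their changes had a median of −0.06. Of 11 tested upstream regulators, *Yy1* rose from 22.1, 23.8, 23.1 and 26.2 CPM to 33.4, 39.9, 42.2, 46.6 and 36.2 CPM, with no overlap (0.74, SE 0.14, adjusted p = 0.00482, edgeR), in all 9 fits that leave out a library. YY1 is a zinc finger factor that can act with Polycomb proteins. Retinoic acid receptors *Rara* (0.27), *Rarb* (0.01) and *Rarg* (−0.31) did not pass the test, *Cdx1* and *Cdx4* had at most 5 reads in any library, and *Gmnn* (−0.35) did not pass the test.

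Markers of other cell types moved with the genotype beside these results. Over all tested genes, edgeR called 7.82% higher and 7.02% lower, and 31.4% had an unadjusted p under 0.05. Of 13 tested stroma markers, 9 rose (11 called by DESeq2). The 14 listed summed to 243 to 390 CPM in control and 556 to 1438 CPM in mutant libraries, highest in mutant replicates 75 and 74. Among them *Foxd1*, the defining gene of the cortical stroma, had 24.9 to 35.1 CPM in control and 41.7 to 47.1 CPM in mutant libraries. *Pdgfrb* went the other way, with means of 10.7 CPM in control and 7.5 CPM in mutant cells (−0.51, SE 0.33, adjusted p = 0.315, edgeR). Only *Tbx18* of the 14 listed was too low to test. Of 7 tested myeloid markers, 2 rose, with a median change of 3.49. Together with the untested *Cx3cr1* they summed to 0.379 to 15.1 CPM in control and 11.6 to 157 CPM in mutant libraries. All 7 had an unadjusted p under 0.05, and DESeq2 called 5. The sum was highest in replicates 77 and 78, which also had the lowest *Hoxb7* and *Hoxb9* values and the highest *Hoxb5* and *Hoxb6* values. The same libraries had the lowest stroma scores of the mutants (0.215 and 0.317). These matches were seen after the fact and were not tested. Of the defining myeloid genes, *C1qa* had 0 reads in control replicates 71 and 73, and *Cx3cr1* had 0 reads in 6 of the 9 libraries. Of 9 tested markers of committed progenitors, *Wnt4*, *Lhx1* and *Ccnd1* were lower. DESeq2 called these and *Fgf8*, limma-voom called 6, and 6 had an unadjusted p under 0.05. Among 12 progenitor markers 1, *Tmem100*, was lower, and 4 had an unadjusted p under 0.05. Of 6 tested ureteric bud markers 1, *Emx2*, was lower, and *Ret* and *Wnt9b* had at most 0.639 CPM in any library. Other listed bud markers were counted, with *Krt18* at 16.02 to 45.47 CPM over all libraries. *Krt8* reached 19.13 CPM in mutant replicate 74, and *Calb1* 216 reads in mutant replicate 77 against at most 28 elsewhere. Fitted changes were above 0 for *Calb1* (2.88), *Krt18* (0.58) and *Krt8* (0.38), none past the edgeR test. They were below 0 for *Emx2* (−2.13), *Wnt11* (−0.85) and *Sox9* (−0.24). Among the remaining lists, 1 of 6 endothelial markers was higher and 2 were lower, and none of 3 podocyte, 3 proximal tubule and 1 erythroid markers passed the edgeR or the DESeq2 test, with an unadjusted p under 0.05 for 2 of the podocyte and 0 of the other markers. The part of these cell types in the Hox values was not tested.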

How the data were processed

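RNA was amplified from sorted cells with a low-input kit, and poly(A)-selected libraries without strand information were sequenced. Per the labels, the submitters' processing notes name STAR, DESeq2 and build mm10, with no roles or versions; the counting tool and annotation release are not given in the sources used here. The authors deposited read counts per gene and library, which were used here. The deposited FPKM values were recomputed from counts, length and library totals (100% within 1%) and not used further. The deposited normalized signal column of each genotype and the authors' log2 fold changes and p-values were not used. Deposited gene identifiers run on as numbers in part of the table, so genes were matched by symbol, and Ensembl identifiers and exon overlaps come from GENCODE M21 (GRCm38), where 39 of 39 members were found and 38 had the same start and end. Some members share exon bases with another gene, 16 of the 39.

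Genotypes were compared on the counts by edgeR 4.0.16 in R 4.3.3 (TMM, filterByExpr on genotype, robust quasi-likelihood test, Benjamini-Hochberg adjustment over 14990 genes), checked first on simulated data. Each SE was derived from the fitted log2 fold change and the F statistic. CPM and RPKM use TMM-normalized library sizes, and 3 reads or fewer were treated as not detected. Totals of at least 21040536 counts make counting error small for abundant genes. Single members were compared over the 126 splits of 9 libraries by 2-sided exact permutation. The alternatives were DESeq2 1.42.0, other scaling and filters, limma-voom (limma 3.58.1), 1 surrogate variable (sva 3.50.0), Y-linked and stroma covariates and leaving out each library. Figures used Python 3.11.15 and matplotlib 3.10.9.

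Members named with every value were those past the threshold, the Hox11 genes, the top gene of each cluster and those with a mean of at least 50 CPM in control cells; *Hoxc5*, *Hoxb5* and *Gm53* were added after their values were seen. The members and the other gene lists were chosen with earlier results of these data known. A row spelled *HOXD3* in capitals lies within the span of *Hoxd3* on the same strand and was not counted as a member. Its mean was 0.733 CPM in control and 1.22 CPM in mutant cells. The fitted change of that row was 0.73 (SE 0.42, adjusted p = 0.257, edgeR), opposite in sign to that of *Hoxd3*. Values of a few listed genes are not reported here.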

Additional observations from a re-analysis of the deposited data

Results flagged for a closer look

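In the control group, *Hoxb5* in replicate 71 stood apart from the other libraries, at 33.7 CPM (33.66), while the nearest control had 30.04 CPM and the lowest 29.37 CPM. It was the 1 value that stood apart in this way among 66 groups of libraries examined (each tested member in each genotype), where chance gives about 3.3. The value lies within the range of the mutant libraries, which had 27.7 to 63.7 CPM.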

How the results depend on the processing

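No paired analysis was possible because the replicate numbers of the control and mutant libraries are not shared. Over 18 alternatives, 16 of the 33 tested members kept the sign of their change, 11 passed the threshold at least once, 22 in none and 0 in all. *Hoxd12* passed in 17 of the 18, with changes from −1.08 to −0.60, *Hoxc8* in 7, and *Hoxb6* and *Hoxb8* in 6 each. Members higher in mutant cells (2) numbered 0 with upper-quartile scaling, 1 surrogate variable, the Y-linked covariate or the stroma covariate, and 5 with limma-voom. Members lower (2) numbered 5 with DESeq2, 6 with limma-voom, 1 with no filter, 1 surrogate variable or the Y-linked covariate, and 0 with the stroma covariate. Leaving out 1 library gave 0 to 4 higher, with 4 without mutant replicate 74 (*Hoxa9*, *Hoxb5*, *Hoxb6* and *Hoxb8*) and 0 without any other. It gave 1 to 5 lower, with 5 without mutant replicate 74 (*Hoxa11*, *Hoxb7*, *Hoxb9*, *Hoxc8* and *Hoxd12*), 2 without control replicate 76 and 1, *Hoxd12*, without each of the others. Over all genes, 2225 became 4868 with limma-voom and 6 with the stroma covariate, and 1046 (without control replicate 73) to 3136 (without mutant replicate 74) with a library left out. For DESeq2 and the other alternatives the count over all genes is not given here. Their counts of members, and the DESeq2 counts of the other lists, therefore have no share beside them. The stroma score did not overlap between genotypes (−1.27 to −0.48 in controls, 0.21 to 1.36 in mutants), so this covariate leaves little of the genotype difference to test. The median change of the members, −0.10, became 0.0208 with limma-voom and 0.146 with the stroma covariate, where *Meis1* also changed sign (−0.48); it stayed between −0.15 and −0.05 with a library left out. The mutant-minus-control share of counts on Hox genes, −0.0136 percentage points, was recomputed without the 100 most abundant genes and with each library left out. It stayed between −0.0157 and −0.00994 in these settings. The cause of these shifts was not tested, including those with the stroma covariate. Depth limits the 6 untested members and the genes of groups 1 to 3.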
